A study of Mus musculus with 2 samples.

Results

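The genes described here encode the proteins of the mitochondrial ribosome. They were taken as the protein-coding genes whose mouse symbol begins with Mrpl or Mrps followed by a digit, which gave 78 of the 47069 genes in the count table. Of these, 49 carried an Mrpl name and 29 an Mrps name, and they lay on 17 chromosomes. A mean of at least 1 CPM over both libraries was reached by 77 of the 78, where CPM is the count of a gene scaled to a common library total.

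Mitochondrial ribosomes, or mitoribosomes, translate the few mRNAs of the mitochondrial genome, all of which encode subunits of the respiratory chain and ATP synthase. Their rRNAs come from mitochondrial DNA, but every protein is encoded in the nucleus, made in the cytosol and imported. Some proteins have a counterpart in the bacterial ribosome and others are found only in mitochondria. Cells with a high demand for oxidative phosphorylation, among them cells that secrete hormones, rely on this machinery.

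The 2 libraries of bulk poly(A) RNA were compared. Both came from whole pituitaries of randomly cycling C57BL/6 females aged 10 to 12 weeks, dissociated with collagenase and pancreatine, with 500000 to 700000 cells pooled from 5 glands per sample. One sample was placed in RNA-Best, a stabilizer that keeps single cells intact, and the other in RNAlater, which preserves RNA but not single cells. The labels name no genetic change or drug for either, and each stabilizer had 1 library. The stabilizer, the pool of animals and the library preparation therefore cannot be told apart, and no test between the groups was possible. All intervals below are 95% intervals that cover counting error only.

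The RNA-Best library held 53915047 counts and the RNAlater library 44917492. The dissociated cells carried pituitary RNA, since all 7 hormone subunit genes were detected, with summed levels of 307051 CPM with RNA-Best and 239085 CPM with RNAlater. Markers of other cells differed between the libraries. None of 10 endothelial markers was higher in RNA-Best (443 against 896 CPM summed), nor was any of 10 pericyte and fibroblast markers (590 against 801), 8 posterior lobe markers (327 against 554) or 9 stem and folliculostellate markers (1022 against 1511). Of 10 macrophage markers 4 were higher (211 against 204), and all 5 erythroid genes were higher (3200 against 1130). No listed marker was at 0 in either library. Ratios of RNA-Best to RNAlater fell with coding length, as given below. Median coding lengths ran from 441 bases for the erythroid genes to 3288 for the pericyte and fibroblast markers. Relative to all genes of their coding length class, median log2 ratios in this order were -0.67, -0.41, -0.49, -0.49, 0.21 and 0.86. The part of coding length in the marker differences was not tested, nor was the part of these differences in the ratios below. In bulk RNA fewer cells of a type and less RNA per cell cannot be told apart.

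The mitoribosomal protein mRNAs took a larger share of the RNA-Best library. The 78 genes summed to 0.190% of all counts in RNA-Best (exact interval 0.189% to 0.191%) and 0.154% in RNAlater (0.153% to 0.155%). The summed level was 1.23-fold higher in RNA-Best, a log2 ratio of 0.30 (0.29 to 0.31). Levels of the 77 genes ran from 3.96 to 53.2 CPM in RNA-Best with a median of 23.1 CPM, and from 4.06 to 41.5 CPM in RNAlater with a median of 19.3 CPM. Mrps18b was lowest and Mrpl17 highest in RNA-Best, and Mrps36 was lowest and Mrpl30 highest in RNAlater. The order of the genes was much the same in both libraries, with a rank correlation of CPM of 0.943 across the 77 genes, which share the 2 libraries.

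**Figure D1:**
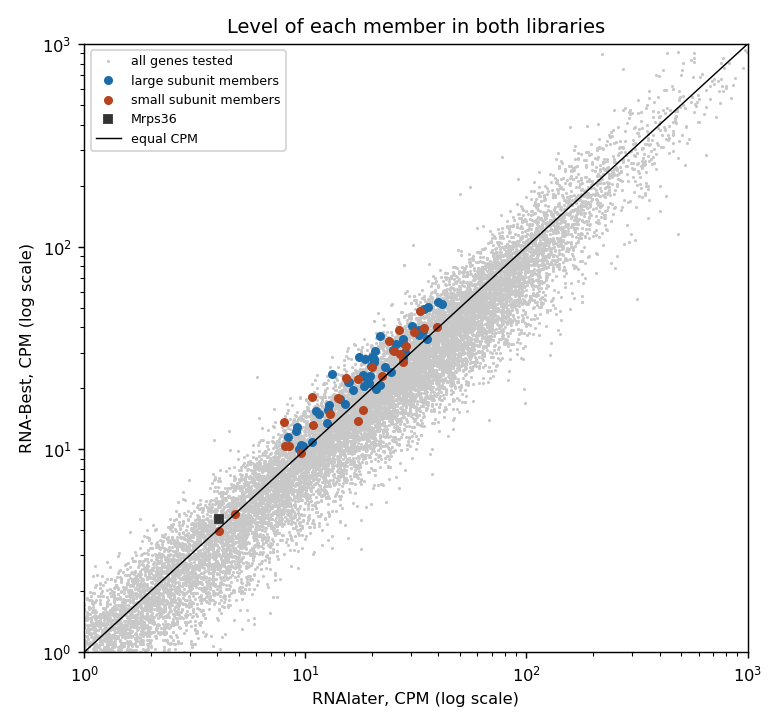
CPM of each gene in RNAlater (x axis, log scale) and RNA-Best (y axis, log scale), with all genes tested in grey, large subunit genes in blue, small subunit genes in red, Mrps36 as a black square and a line at equal CPM; both axes are cut at 1 and 1000 CPM. Most mitoribosomal genes lie above the line, 68 of 77, while most grey points lie below it, with CPM scaled by total counts.

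Most of the genes had a higher level in RNA-Best. Ratios are log2 of RNA-Best over RNAlater after 0.5 CPM was added to each, so a positive value means higher in RNA-Best. Of the 77 genes 68 were higher in RNA-Best, against 33.0% of the 16504 genes tested. The median ratio was 0.28, compared with -0.18 over all genes, and 75 of 77 lay above that all-gene median. The spread among the members was narrow, with a robust SD of 0.22 against 0.42 for all genes. Some lists described below had similar values, 0.195 for cytosolic ribosomal proteins, 0.21 for mitoribosome assembly factors and 0.23 for the nuclear-encoded respiratory chain. Wider spreads were 0.27 for mitochondrial translation factors and 0.28 for mRNAs of the mitochondrial genome. Mitochondrial DNA and RNA factors and mitoribosomal proteins with other names each had 0.35. Ratios of -0.1 or less were seen for 2 genes, 15 lay between -0.1 and 0.1, 24 between 0.1 and 0.3, 31 between 0.3 and 0.6, and 5 over 0.6.

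How many single genes passed a fixed fold depended on scaling. With total counts, at least 1.5-fold higher in RNA-Best were 5 of 77, or 6.49%, against 3.22% of all genes, and 0 were at least 1.5-fold lower, against 18.8%. With edgeR TMM factors the number at least 1.5-fold higher was 22 (7.31% of all genes), with DESeq2 size factors 23 (7.72%) and with a total without the 2 most abundant genes 16 (6.39%). With total counts none reached 2-fold in either direction, where the shares of all genes were 0.273% higher and 4.99% lower. The counting interval lay wholly above 0 for 57 genes (20.2% of all genes) and wholly below 0 for 2 (51.2%), and for 18 it held 0. These intervals had a median width of 0.25 and do not include variation between samples.

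The direction of the weakest ratios depended on scaling. The 2 most abundant genes were Prl, with 235654 CPM with RNA-Best and 172302 CPM with RNAlater, and Gh, with 61040 and 59379 CPM. Total-count scaling placed the median of all genes at -0.18, and edgeR TMM factors, DESeq2 size factors and a total without the 2 most abundant genes moved it up by 0.16, 0.17 and 0.12. Under each of these, 75 of the 77 genes were higher in RNA-Best, against 48.6%, 49.6% and 44.5% of all genes, and Mrps2 and Mrps15 stayed lower. The 7 genes that changed sign were Mrps5, Mrpl37, Mrpl10, Mrpl39, Mrps34, Mrps18b and Mrpl49.

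**Figure D2:**
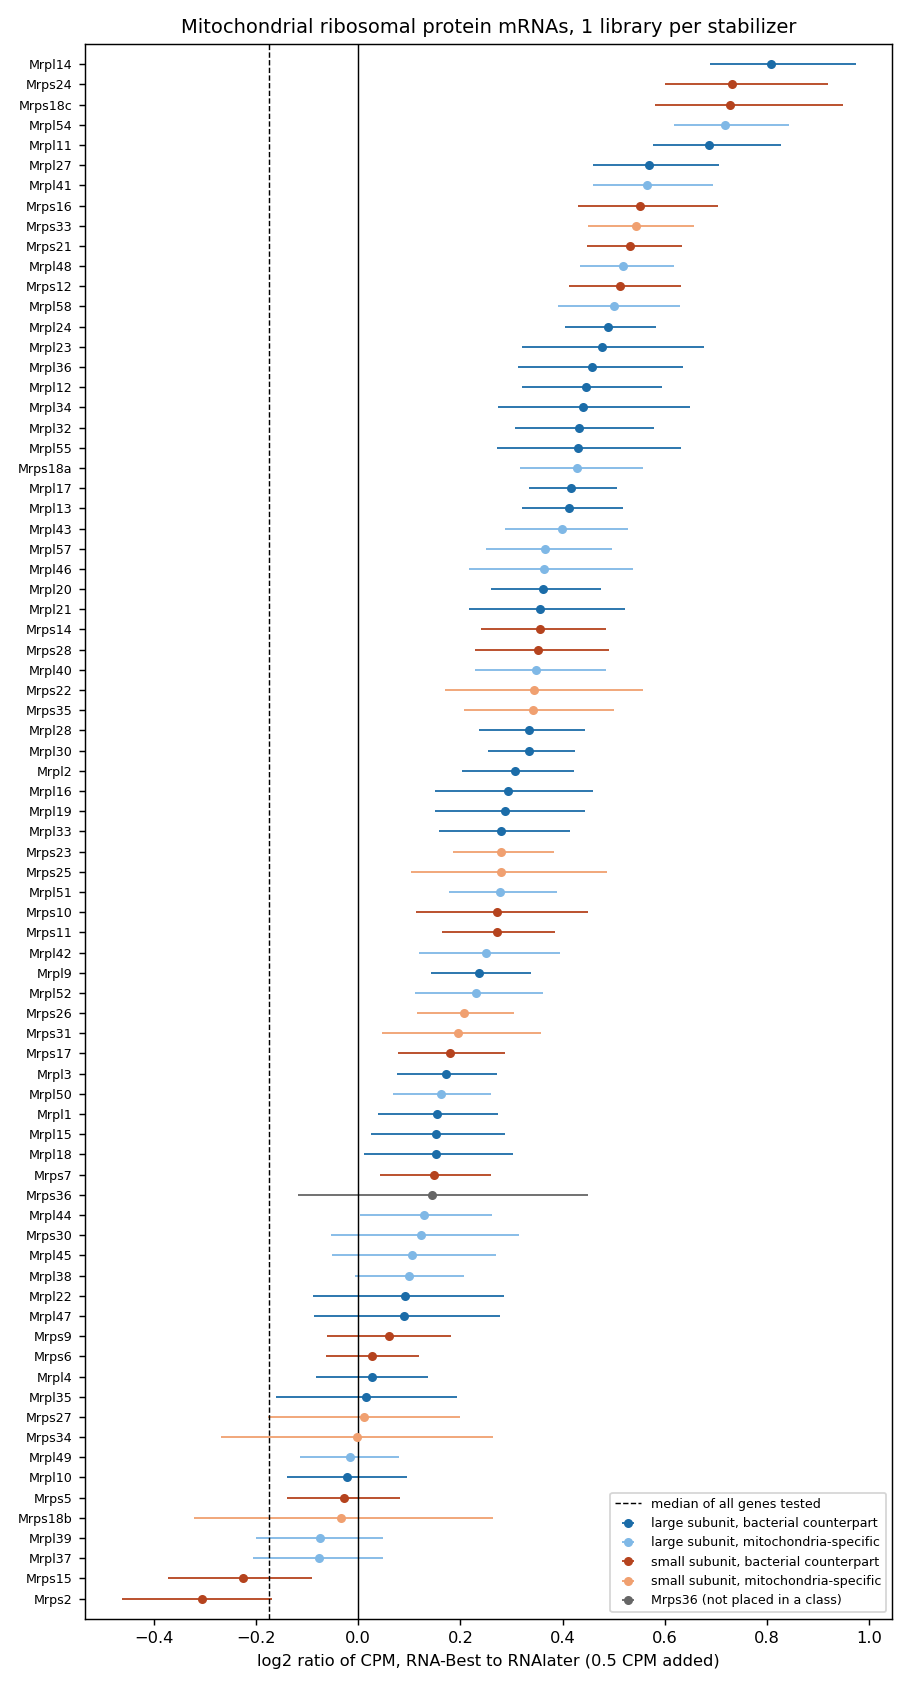
Log2 ratio of CPM, RNA-Best to RNAlater (x axis), for each of the 77 genes, with 95% counting intervals as bars and colours for the structural class. The ratios run from -0.31 for Mrps2 to 0.81 for Mrpl14, the dashed line marks the all-gene median of -0.18, and 68 points lie to the right of 0, of which Mrpl35 and Mrps27 lie within 0.02 of it; 7 genes left of 0 move to its right under the other scalings.

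The large subunit forms the peptide bond and holds the exit tunnel. Its 30 genes with a bacterial counterpart had a median ratio of 0.33 and 29 were higher in RNA-Best. Mrpl14, whose product lies on the face that meets the small subunit, had the highest ratio of all, with 23.4 CPM with RNA-Best and 13.2 CPM with RNAlater, a ratio of 0.81 (0.69 to 0.97). It lies at chr17:45686322-45698495 on GRCm38. Mrpl11, part of the base of the factor-binding stalk, stood at 28.5 and 17.5 CPM, a ratio of 0.69 (0.58 to 0.83). These were the only genes of this class past 1.5-fold.

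Other stalk proteins were less far apart. Mrpl12, the stalk protein, had 21.4 CPM with RNA-Best and 15.6 CPM with RNAlater, a ratio of 0.45 (0.32 to 0.60). Mrpl10, which anchors it, was the lowest of the class, with 24.1 and 24.5 CPM and a ratio of -0.02 (-0.14 to 0.09). The intervals of Mrpl12 and Mrpl10 did not overlap, although their products sit together in the ribosome. Their longest coding lengths were 603 and 786 bases, and the part of coding length was not tested. Near the peptidyl transferase centre, Mrpl27 had 27.9 against 18.6 CPM (ratio 0.57) and Mrpl2 had 30.9 against 24.9 CPM (ratio 0.31). Around the tunnel exit, Mrpl24 had 50.5 against 35.9 CPM (ratio 0.49) and Mrpl23 had 12.9 against 9.13 CPM (ratio 0.48). Exons of another gene on the opposite strand overlapped 26.3% of the exonic bases of Mrpl24, so its level is uncertain. Mrpl3 and Mrpl4, which bind rRNA, were closer to equal, with ratios of 0.17 and 0.03.

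The 20 large subunit genes classed as found only in mitochondria had a median ratio of 0.26, and 17 were higher in RNA-Best. Mrpl54 stood at the top of the class with 36.2 against 21.8 CPM, a ratio of 0.72 (0.62 to 0.84), and Mrpl37 at the bottom with 19.8 against 20.9 CPM, a ratio of -0.08 (-0.21 to 0.05). Mrpl41 had 30.7 against 20.6 CPM, a ratio of 0.56. Mrpl58, a peptidyl-tRNA hydrolase that rescues stalled ribosomes, had 28.6 against 20.1 CPM, a ratio of 0.50 (0.39 to 0.63). Mrpl44, which has an RNase III-like fold, had a ratio of 0.13, and Mrpl45, which ties the ribosome to the inner membrane, a ratio of 0.10 (-0.05 to 0.27). Mrps30 and Mrps18a carry small subunit names but sit in the large subunit, and had ratios of 0.12 and 0.43.

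The small subunit binds the mRNA and reads its codons. Its 16 genes with a bacterial counterpart had a median ratio of 0.27 and 13 were higher, but they spread more than the other classes, with a robust SD of 0.36. Both ends of the small subunit fell in this class. Mrps24 had 18.2 CPM with RNA-Best and 10.8 CPM with RNAlater, a ratio of 0.73 (0.60 to 0.92). Mrps2 had 13.9 and 17.3 CPM, a ratio of -0.31 (-0.46 to -0.17), and Mrps15, which binds the small rRNA, had 15.6 and 18.3 CPM, a ratio of -0.23 (-0.37 to -0.09). Mrps2 and Mrps15 were the only 2 members whose intervals lay below 0, and the only 2 below the all-gene median.

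Other members of this class fell between these ends. Mrps12, at the decoding centre, had 34.2 against 23.8 CPM, a ratio of 0.51 (0.41 to 0.63). Mrps16 had 22.6 against 15.3 CPM and a ratio of 0.55, Mrps28 a ratio of 0.35 and Mrps7 a ratio of 0.15. Mrps5 was nearly equal in the libraries, with 27.1 and 27.7 CPM and a ratio of -0.03.

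The 10 small subunit genes classed as found only in mitochondria had a median ratio of 0.24, and 8 were higher. Mrps33 was highest with 38.8 against 26.4 CPM, a ratio of 0.54, and Mrps18b lowest with 3.96 against 4.06 CPM, a ratio of -0.03 (-0.32 to 0.26). Mrps22 had a ratio of 0.34 (0.17 to 0.56). Mrps27, a pentatricopeptide repeat protein, had 9.64 and 9.57 CPM, and Mrps34 had 4.82 and 4.83 CPM, but both levels are uncertain, since exons of other genes overlap them. For Mrps27 24.2% of exonic bases were overlapped on the opposite strand, and for Mrps34 37.0% on the same and 63.4% on the opposite strand. Over all classes the large subunit had a median of 0.32 in 50 genes and the small subunit 0.27 in 26, a difference of 0.05 that was not tested.

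The paralogs Mrps18a, Mrps18b and Mrps18c, which derive from 1 bacterial protein, differed. Despite this origin, Mrps18a and Mrps18b were placed in the classes found only in mitochondria, which follow published mitoribosome structures. Mrps18c had 13.7 CPM with RNA-Best and 8.04 CPM with RNAlater, a ratio of 0.73 (0.58 to 0.95). Mrps18a had 27.8 and 20.5 CPM, a ratio of 0.43 (0.32 to 0.56), and Mrps18b the ratio of -0.03 given above. The intervals of the 3 genes did not overlap. Their longest coding lengths were 429 bases for Mrps18c, 588 for Mrps18a and 762 for Mrps18b, so the ratios fell in the order of coding length. The part of coding length in these differences was not tested. Exons of another gene on the same strand covered 23.2% of the exonic bases of Mrps18c, and exons on the opposite strand covered 30.5% of those of Mrps18b. The counts of both were fractional and the strand setting is unknown, so both levels are uncertain.

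Mrps36, placed in no class here because it was later assigned to the oxoglutarate dehydrogenase complex, had 4.54 against 4.06 CPM, a ratio of 0.14 (-0.12 to 0.45). Mrpl53 was the gene under 1 CPM, with 1 count in RNA-Best and 4 in RNAlater. Exons of other genes on the same strand cover 88.0% of its exonic bases, and one of them, Ccdc142os, held 131 and 99 counts. Its level is therefore uncertain and no ratio is given.

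Promoters of the genes were compared with all promoters, as a description of shared sequence. RefSeq windows on GRCm38.p6, 250 bases before to 50 bases after a start, were found for 69 of the 78 genes, in 75 windows. Motifs were searched on both strands. The ETS motif CCGGAAG was in 34.7% of these windows and 8.86% of all 32851 windows, and the YY1 motif AAGATGGC in 16.0% and 2.75%. The SP1 motif GGGCGG was in 52.0% against 35.7%, CCAAT in 40.0% against 37.4% and TATAAA in 6.67% against 13.6%. An NRF1 motif was searched in 2 forms. GCGCANGCG was in 21.3% against 6.25%, and the form with a further C at its end in 17.3% against 4.60%. Median GC was 58.7% in these windows and 52.7% in all.

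Ratios with and without a motif are given as medians only. The 25 genes with the ETS motif had a median ratio of 0.37 and the 43 without it 0.25. For CCAAT the order was the opposite, 0.26 with (26 genes) and 0.34 without (42 genes), and for YY1 the medians were 0.26 with (12 genes) and 0.29 without (56 genes). With SP1 the median was 0.33 and without it 0.28, in 34 genes each, and with TATAAA it was 0.36 (5 genes) and without it 0.28 (63 genes). For NRF1 the order depended on the form. Genes with the longer form had a median of 0.33 (13 genes) against 0.28 (55 genes), and genes with the shorter form 0.22 (16 genes) against 0.29 (52 genes). The windows of the highest and the lowest ratio are shown because they mark the ends of the set. Capitals mark matches to the ETS, YY1, SP1, CCAAT and TATAAA motifs and to the longer NRF1 form. Mrpl14 (chr17:45686099-45686398, plus strand) had 6 matches, to NRF1 and SP1, and Mrps2 (chr2:28467816-28468115, plus strand) had 0.
Mrpl14: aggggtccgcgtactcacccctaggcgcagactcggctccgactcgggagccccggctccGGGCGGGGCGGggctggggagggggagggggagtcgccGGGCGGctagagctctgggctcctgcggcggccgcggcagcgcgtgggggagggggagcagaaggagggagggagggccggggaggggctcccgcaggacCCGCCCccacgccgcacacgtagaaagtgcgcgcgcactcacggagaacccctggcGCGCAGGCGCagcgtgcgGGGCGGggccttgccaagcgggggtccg
Mrps2: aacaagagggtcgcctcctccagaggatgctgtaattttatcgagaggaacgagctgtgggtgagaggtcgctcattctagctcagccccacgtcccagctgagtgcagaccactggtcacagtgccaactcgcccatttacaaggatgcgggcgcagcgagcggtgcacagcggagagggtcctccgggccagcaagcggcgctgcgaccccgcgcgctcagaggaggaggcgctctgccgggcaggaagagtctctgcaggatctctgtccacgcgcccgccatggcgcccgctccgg

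Mrps11 and Mrpl46 are transcribed away from each other on chromosome 7, with RefSeq starts 42 bases apart. Their ratios were 0.27 and 0.36. In GENCODE, the annotation used for lengths, the starts are 412 bases apart in the other order, so the genes overlap, and 7.97% of the exonic bases of Mrps11 and 12.2% of those of Mrpl46 lie in exons of the other gene. The 41 bases between the RefSeq starts (chr7:78783090-78783130, plus strand) hold 1 SP1 match, in capitals, and are shown because they separate a large and a small subunit gene in RefSeq.
Mrpl46-Mrps11: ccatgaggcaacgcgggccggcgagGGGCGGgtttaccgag

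Levels between genes were compared per length, as CPM per kb of the longest annotated transcript. The median was 12.2 CPM per kb in RNA-Best and 9.51 in RNAlater, against 5.17 and 6.22 over all genes. Mrps21 was highest, at 98.2 and 67.5 CPM per kb, followed by Mrpl54, Mrpl20, Mrps6 and Mrpl41. Mrps25 was lowest, at 1.70 and 1.39, below Mrps34, Mrps30, Mrps22 and Mrpl35. Exons of another gene on the opposite strand overlapped 69.8% of the exonic bases of Mrps25, so its level is uncertain. The mean level of the highest gene was 53.6-fold that of the lowest, and the 90th percentile 9.60-fold the 10th. This order rests on the length used. With the median transcript length, 2 of the 5 highest and 3 of the 5 lowest genes were shared, and the rank correlation of both orders was 0.653.

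By class, the median level was 13.5 CPM per kb in RNA-Best and 11.5 in RNAlater for large subunit genes with a bacterial counterpart. It was 12.9 and 9.85 for large subunit genes classed as found only in mitochondria. It was 15.1 and 10.3 for small subunit genes with a bacterial counterpart. Small subunit genes classed as found only in mitochondria had the lowest medians, 4.55 and 4.35.

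Ratios were lower for longer genes. Across all genes tested, its rank correlation with coding length was -0.624 (13824 genes) and across the mitoribosomal genes -0.534 (77 genes). With the longest transcript these were -0.638 and -0.254. The mitoribosomal genes are short, with a median coding length of 588 bases against 1422 for all genes tested. The 40 with up to 600 coding bases had a median ratio of 0.38, held all 5 genes past 1.5-fold and had 1 lower gene. The 37 longer ones had a median of 0.15, 0 past 1.5-fold and 8 lower. The same split over all genes gave medians of 0.15 and -0.27. Of 1715 genes with up to 600 coding bases, 152 were at least 1.5-fold higher and 589 were lower. Of 12109 longer genes, 80 were at least 1.5-fold higher and 9412 were lower. The 5 highest ratios belonged to genes of 405 to 576 coding bases and the 5 lowest to genes of 762 to 1269.

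The genes were also set beside others of like length. In classes of longest transcript length, 66 of 77 lay above the median of all genes in their class, by a median of 0.29. For transcripts up to 1 kb they had a median of 0.48 against 0.28 for all genes, and for transcripts of 4 to 6 kb 0.24 against -0.40. In fine classes of coding length, 67 of 77 lay above the class median, by a median of 0.24. Other lists of mitochondrial and ribosomal genes also had medians above those of wider coding length classes (up to 1 kb, 1 to 2 kb and so on), with the values given beside them.

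**Figure D3:**
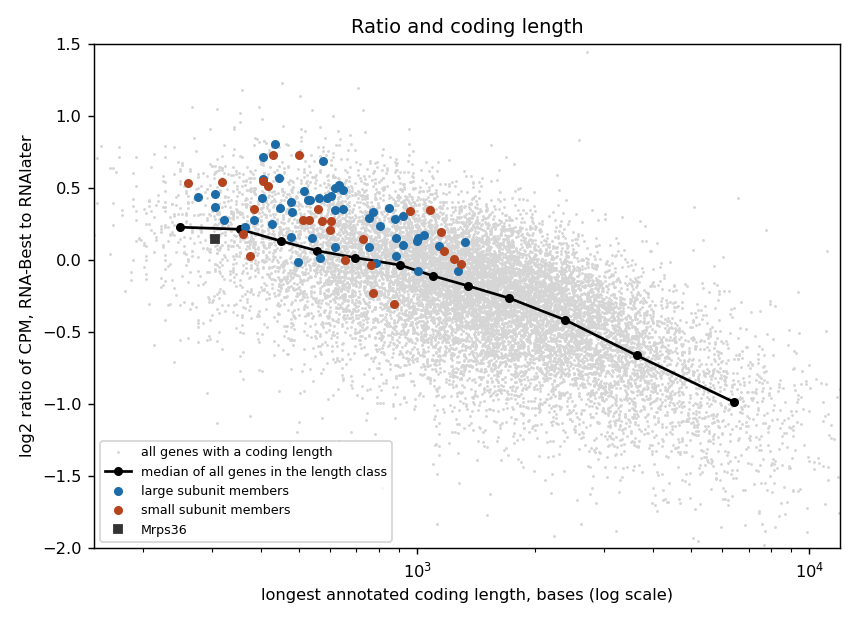
Log2 ratio (y axis) against longest annotated coding length in bases (x axis, log scale) for all genes with a coding length (grey), large subunit (blue) and small subunit (red) genes and Mrps36 (square), with the median of all genes in each length class as a black line. Of the 77 mitoribosomal genes 67 lie above the class median, and both fall towards longer coding sequences.

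Some mitoribosomal proteins carry other names. Of 5 such genes 4 were higher in RNA-Best, with a median of 0.15. For this list and those below, ratios use total counts, under which 33.0% of all genes were higher. Other scalings, which moved the all-gene median up by 0.12 to 0.17, were not run on these lists. Chchd1 had 44.1 CPM with RNA-Best and 22.4 CPM with RNAlater, a ratio of 0.96 (0.87 to 1.08), above every Mrpl and Mrps gene tested, and Ptcd3 had 24.5 and 26.5 CPM, a ratio of -0.11 (-0.22 to 0.00). Dap3, a GTP-binding small subunit protein, had a ratio of 0.14, Aurkaip1 0.39 and Gadd45gip1 0.15. The 5 lay a median of 0.33 above all genes of their coding length class.

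Other proteins act on the mitoribosome. Of 11 translation factors 7 were higher under total counts, against 33.0% of all genes, with a median of 0.08. They ran from -0.27 for the elongation factor gene Gfm1 to 0.36 for the initiation factor gene Mtif3, and Tufm, the elongation factor that brings tRNAs, had 0.27. Of 23 assembly factors 18 were higher, with a median of 0.13, from -0.36 for the helicase gene Dhx30 to 0.44 for the rRNA methyltransferase gene Mrm1. None of these 34 genes passed 1.5-fold in either direction, against 3.22% of all genes higher and 18.8% lower. Of all genes with over 600 coding bases, 80 of 12109 were at least 1.5-fold higher. They are longer, with median coding lengths of 1338 and 1131 bases, and against all genes of their coding length class (up to 1 kb, 1 to 2 kb and so on) the translation factors lay a median of 0.28 higher and the assembly factors 0.30 higher, beside 0.29 for the mitoribosomal genes. Of 14 factors of mitochondrial DNA and RNA 6 were higher, with a median of -0.13, from -0.65 for the DNA polymerase gene Polg to 0.62 for Hsd17b10, a subunit of mitochondrial RNase P. Their median coding length was 1905 bases, and the median ratio of all genes was -0.18. Against their coding length classes these factors lay a median of 0.20 higher, with 9 of 14 above the class median.

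Most other ribosomal and respiratory genes were also higher in RNA-Best under total counts, where 33.0% of all genes were higher. Of 79 cytosolic ribosomal protein genes 78 were higher, with a median of 0.57 and 37 past 1.5-fold, and their summed level was 25314 CPM in RNA-Best and 16245 in RNAlater. Of 80 nuclear-encoded respiratory chain genes tested 77 were higher, with a median of 0.41 and 20 past 1.5-fold. Of all genes with up to 600 coding bases, 152 of 1715 were at least 1.5-fold higher. These 2 lists thus had higher medians than the mitoribosomal genes, at shorter median coding lengths of 456 and 417 bases. Against the same coding length classes they lay a median of 0.53 and 0.37 higher. These classes are wide. Below 1 kb the median of all genes fell from 0.23 (up to 300 bases) to -0.04 (800 to 1000 bases). Lists of unlike coding length are therefore not fully matched by these classes, and their order after matching for length was not tested. The 13 mRNAs of the mitochondrial genome, which mitoribosomes translate, had a median of 0.03 with 7 higher, from -0.50 for mt-Nd6 to 0.62 for mt-Nd3. They lay a median of 0.15 above their coding length classes, with 9 of 13 above the class median.

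**Figure D4:**
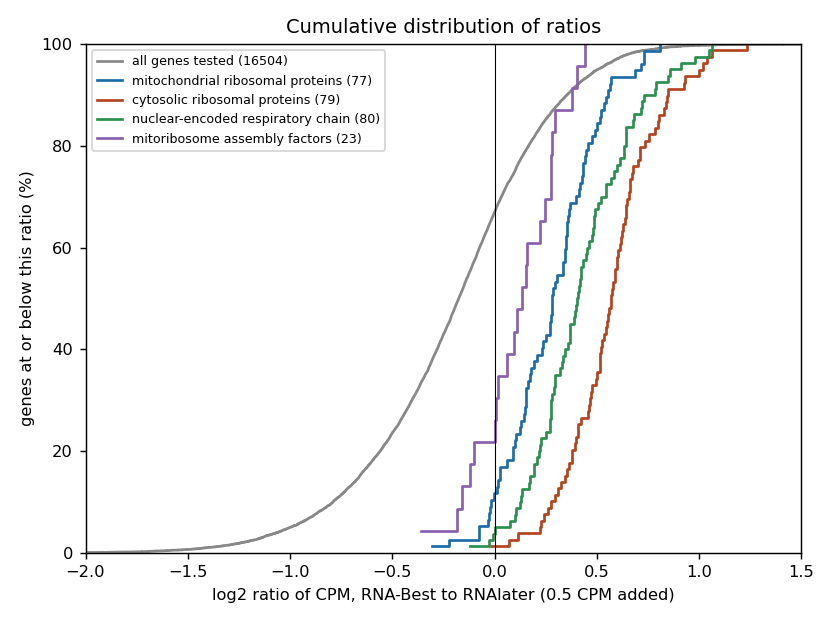
Cumulative share of genes (y axis, percent) at or below each log2 ratio (x axis) for all 16504 genes tested, the 77 mitoribosomal genes, 79 cytosolic ribosomal proteins, 80 nuclear-encoded respiratory chain genes and 23 assembly factors. The mitoribosomal curve, with a median of 0.28, lies between the assembly factors (0.13) and the respiratory chain (0.41).

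Pseudogenes can share reads with these genes, and some counts were fractional. Both counts were whole for 34 of the 78 genes. The 33 of these that were tested had a median ratio of 0.29 and 28 were higher. Mrpl23-ps1 had 12.4 against 8.89 CPM, nearly as much as Mrpl23, and Mrpl48-ps had 14.1 against 8.88 CPM. Adding each pseudogene to its parent gave ratios of 0.48 for Mrpl23 and 0.55 for Mrpl48. For Mrps36, whose pseudogenes held 40.4% of the summed RNA-Best level, it gave 0.18 (-0.02 to 0.42). Exons of other genes overlapped 33 of the 78 genes, and 10 of them over more than 20% of their exonic bases. For these 10 the counts are uncertain where reads could be assigned to either gene.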

How the data were processed

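Poly(A) RNA of 2 libraries was measured, grouped by the stabilizer in the labels. The authors deposited 1 table of estimated counts per gene, not normalized. Per the submitters' processing notes, reads were aligned to mm10 with STAR 2.5.1b and counted with featureCounts 1.5.0-p1. Fractional values show that some reads were divided between features, and the option and strand setting were not given in the sources used here. Without a stated strand setting, overlapping genes cannot be told apart.

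Symbols, lengths and coordinates came from GENCODE M21 on GRCm38, which matched 46488 of 47069 identifiers (98.8%). CPM used each column total, and ratios added 0.5 CPM, which understates those of low genes. Genes needed a mean of 1 CPM. Estimated counts were rounded for exact conditional binomial 95% intervals. A count of 0 allows up to 3 counts, 0.0556 CPM in RNA-Best and 0.0668 in RNAlater. Robust SDs are median absolute deviations multiplied by 1.4826. The plan foresaw whole counts. Single libraries allowed no p-value.

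The members and lists were chosen with earlier results of these data known. Named genes were the 5 highest and 5 lowest by ratio and by CPM per kb, members with known roles, those under 1 CPM and the ends of each list. Mrpl17, Mrpl30, Mrpl49, Mrpl48, Mrps11, Mrpl46, Dap3, Aurkaip1, Gadd45gip1, Tufm, Prl, Gh and Ccdc142os were named after their values were seen. Coding length, its classes, the 600-base split and the promoter motifs were also chosen after seeing the data. The longer NRF1 motif was searched first, and the shorter was added afterwards, with the first result known, so that its letters could be printed. Alternatives were other scalings, pseudocounts, filters and lengths. The ratio, the 1.5-fold call and the counting interval were tried on simulated counts with planted 2-fold changes. Those counts held counting error only, and the length classes, lists and promoter steps were not tried on them. Python 3.11.15, numpy 2.4.6, scipy 1.17.1, pandas 2.3.3, R 4.3.3, edgeR 4.0.16 and DESeq2 1.42.0 were used, the last 2 for scaling only.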

Additional observations from a re-analysis of the deposited data

How the results depend on the processing

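No paired analysis was possible because there was 1 library for each stabilizer, and no library could be left out. The member median of 0.28 became 0.45 with edgeR TMM factors and 0.46 with DESeq2 size factors. Members at least 1.5-fold higher, 5 in the report, numbered 22 with TMM (7.31% of all genes), 23 with DESeq2 factors (7.72%), 16 with a total without the 2 most abundant genes (6.39%) and 2 with a pseudocount of 5 CPM (1.49%), while the number at least 1.5-fold lower stayed at 0 under each alternative run. Among the 33 tested members with whole counts, 28 were higher in RNA-Best and 31 lay above the all-gene median, a count added after seeing the data. The RNA-Best share of 0.190% became 0.270% when the 2 most abundant genes left the total and 0.0753% over members with whole counts alone. The rank correlation of ratio and length, -0.254, became -0.398 with median transcript length, -0.259 with exon union length, -0.259 with a pseudocount of 0.1 CPM, -0.215 with no filter on low values, -0.339 from 10 CPM, -0.279 with whole counts and -0.534 with coding length, which was added after seeing the data. For 38 named members, 209 values stayed within their counting interval and 71 moved outside it. The 209 include settings that only select genes, by level or by whole counts, and cannot change the ratio of a gene. Moves came from the other scalings and from a pseudocount of 5 CPM. The tally is therefore no measure of how stable the ratios were. The NRF1 comparison changed order with the length of the motif, as given in the report. Single libraries limit every value to counting error.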
